A study of Mus musculus with 30 samples.

Results

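The odorant receptor (OR) repertoire of wild-type mice of the inbred 129S6/SvEvTac strain was compared with that of wild-type mice of a mixed C57BL/6J x 129SvEv background. The comparison took the 18 wild-type mice among the 30 mice of the study, 6 of them 129 and 12 mixed, and the 549 of 564 OR genes whose probes were read in all 18 lanes. Each lane of a NanoString cartridge held 1 µg of total RNA from the whole olfactory mucosa of a single mouse aged 21 days, hybridised to 1 pair of probes per gene. The study used these counts, of mice lacking the P and H elements or the Olfr7 gene cluster and of wild-type controls, to work out tests of differential expression against a fold change threshold. Set against each other, those controls show how much the repertoire differed with no deletion at all.

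The 129 mice (wild type, 4 females and 2 males) filled lanes 1 to 6 of cartridge MK38. One mixed group (wild type, 3 females and 3 males, companions of the ΔP (Berry) x ΔH strain) filled lanes 1 to 6 of MK29. The other (wild type, 4 females and 2 males, companions of the ΔH strain) filled lanes 1 to 6 of MK37. No cartridge held wild-type mice of both backgrounds, so the background strain and the cartridge cannot be told apart. The mixed background is no fixed genotype: each mouse can carry its own combination of C57BL/6J and 129 alleles, and the colony differed between MK29 and MK37. The mice are separate animals, numbered here in accession order, and mouse 1 of 1 group has no link to mouse 1 of another.

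OR genes encode G protein-coupled receptors of the sensory neurons in the nose, and a mature neuron expresses 1 allele of a single OR gene. In RNA from whole mucosa the count of an OR gene therefore follows how many neurons chose that gene and how much RNA each of them holds. The class I genes form a large cluster on chromosome 7 and resemble the receptors of fish, whereas the class II genes lie in clusters on most chromosomes. The H and P elements are enhancers that act on OR genes close to them. MOR numbers group OR genes into families by the sequence of their receptors.

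A NanoString count reports RNA molecules bound by both a capture and a reporter probe of a gene. The probe pairs of the 3 genes that were highest and the 2 that were lowest in 129 mice relative to mixed mice are shown because the largest results below rest on them, each as 1 strand 5′ to 3′ as deposited. Both probes lie on the RNA of 1 gene: Olfr568, Olfr543 and Olfr552 on chromosome 7, Olfr323 on chromosome 11 and Olfr31 on chromosome 14. No sequence of either strain under the probes was compared here.
Olfr568 capture: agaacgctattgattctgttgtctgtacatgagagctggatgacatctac
Olfr568 reporter: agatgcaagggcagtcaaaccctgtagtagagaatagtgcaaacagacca
Olfr543 capture: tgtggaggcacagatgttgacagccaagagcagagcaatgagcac
Olfr543 reporter: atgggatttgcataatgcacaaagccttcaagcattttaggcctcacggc
Olfr323 capture: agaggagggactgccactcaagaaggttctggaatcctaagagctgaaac
Olfr323 reporter: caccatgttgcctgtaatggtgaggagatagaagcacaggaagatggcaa
Olfr31 capture: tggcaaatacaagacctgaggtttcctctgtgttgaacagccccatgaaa
Olfr31 reporter: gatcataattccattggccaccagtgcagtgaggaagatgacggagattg
Olfr552 capture: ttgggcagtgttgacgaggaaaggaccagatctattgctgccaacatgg
Olfr552 reporter: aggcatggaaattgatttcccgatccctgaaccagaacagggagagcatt

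Counts were divided by a lane factor from the 6 positive control probes and then by one from the 5 reference genes, and such scaled counts are the unit of every level below. The reference genes all belong to mature olfactory sensory neurons and were well detected in each lane: Omp (olfactory marker protein), Cnga2 (a subunit of the cyclic nucleotide-gated channel), Adcy3 (adenylyl cyclase), Gnal (the G protein alpha subunit of olfactory neurons) and Ano2 (a calcium-activated chloride channel) had means from 5806 to 108203. Raw counts over the 549 OR genes summed to between 616182 and 852640 per 129 mouse, 618719 and 830003 per MK29 mouse, and 705555 and 989604 per MK37 mouse. The lane background (mean plus 2 SD of the 8 negative control probes) ran from 34.0 to 52.6 over the 18 lanes, and no OR gene fell to it in any lane. Relative to their own geometric mean, Ano2 was lower in 129 mice by 0.21 on the log2 scale (limma adjusted p = 2.19e-05) and Adcy3 higher by 0.13 (limma adjusted p = 0.000634). Omp was higher by 0.04 (limma adjusted p = 0.0250), while Cnga2 and Gnal differed by 0.04 and 0.00 (limma adjusted p = 0.178 and 0.990).

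Most OR genes differed between the backgrounds. In a gene-wise linear model (limma, log2 of scaled count plus 1, Benjamini-Hochberg adjusted p under 0.05 over all genes), 388 of 549 OR genes (70.7%) were differentially expressed (DE) between the 6 129 mice and the 12 mixed mice. Of these, 183 (33.3%) were higher and 205 (37.3%) lower in 129 mice. For 323 genes the difference also held, in the same direction, against each mixed group on its own, 143 of them higher and 180 lower. In bulk RNA, fewer neurons expressing a gene and less RNA per neuron cannot be told apart.

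The scale moves the balance between rises and falls more than it moves the total. Scaling on the total of OR counts gave 260 higher and 168 lower, and shifted the median of all genes from 0.00 to +0.13. Scaling on positive controls alone gave 130 higher and 219 lower. With the cartridge as a random block, 238 genes (43.4%) remained DE, 92 higher and 146 lower. All 238 were among the 388. The fitted correlation within a cartridge was 0.406. The spread between cartridges behind it rests on the mixed groups alone, which also differ in colony, because all inbred mice shared a cartridge. The block therefore cannot separate a shift of that cartridge from the background difference. Genes that stay DE with the block, here and below, are not cleared of such a shift.

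Sorted by size, the differences were concentrated in a smaller set. The tTREAT test of the study, which asks for a fold change (FC) above 1.5 at a p of 0.01, called 79 genes (14.4%), all of them also DE by limma. It called 20 genes (3.64%) higher and 59 (10.7%) lower in 129 mice. Scaling on total OR counts turned this split to 35 higher and 47 lower. In 210 genes (38.3%) the 6 129 mice lay entirely outside the range of the 12 mixed mice, 74 above it and 136 below it. Among DE genes, 54 had an FC of at least 2, 18 higher and 36 lower, and 48 of these 54 had no overlap between the backgrounds. With the cartridge block 51 of the 54 remained DE.

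**Figure D1:**
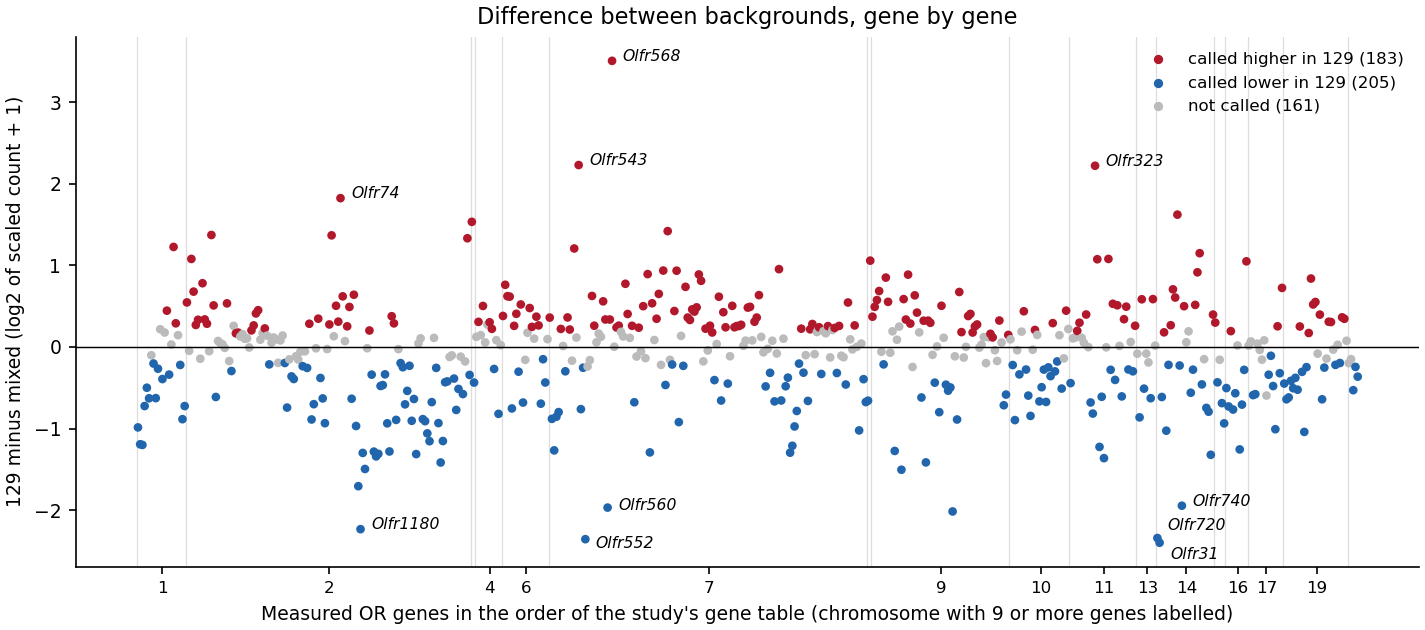
Difference between 129 and mixed mice (log2 of scaled count plus 1, 129 minus mixed) for each of the 549 OR genes, in the order of the study's gene table with chromosomes set off by grey lines. Red points were called higher in 129 (183), blue points lower (205) and grey points not called (161). Rises and falls lie on nearly every chromosome, and the labelled genes are among those farthest from 0.

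The gene with the largest rise was Olfr568 (MOR14-11), a class I gene on chromosome 7. Its scaled counts in the 6 129 mice ran from 2075 to 2452 with a median of 2320, and in the 12 mixed mice from 164 to 226 with a median of 205. The groups lay far apart, with no mixed mouse near any 129 mouse. The difference was +3.51 (SE 0.07) on the log2 scale, an 11.4-fold rise (limma adjusted p = 2.95e-20), and it moved Olfr568 from rank 540 of 549 in mixed mice to rank 81 in 129 mice. MK29 and MK37 mice differed from each other by 0.06 on this gene.

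Olfr543 (MOR42-2), also class I on chromosome 7, ran from 1156 to 1398 in 129 mice (median 1231) and from 227 to 333 in mixed mice (median 263). All 129 mice lay above all mixed mice, a 4.70-fold rise (log2 +2.23, SE 0.07, limma adjusted p = 1.47e-16). Olfr323 (MOR107-1, chromosome 11) ran from 1325 to 1539 in 129 mice (median 1428) and from 209 to 720 in mixed mice (median 270), a rise of +2.22 (SE 0.22). Again the ranges did not meet, but 2 mixed mice stood apart from the other 10, as described below. Olfr74 (mOR-EV, chromosome 2) ran from 773 to 920 in 129 mice (median 877) and from 173 to 343 in mixed mice (median 223). It rose by +1.83 (SE 0.14). It was also lower in MK37 than in MK29 mice, by 0.61 (limma adjusted p = 0.000231).

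The next largest rises among genes also DE against each mixed group alone were Olfr736 (+1.62), Olfr1402 (+1.53), Olfr619 (+1.42), Olfr355 (+1.37), Olfr1153 (+1.37) and Olfr298 (+1.21). The 129 mice lay above all mixed mice in each of these 6. Olfr1314 (+1.33) and Olfr421 (+1.23) were DE over all mixed mice but not against MK37 mice alone (limma adjusted p = 0.0515 and 0.306). Olfr1402 was split within the inbred strain: 129 mice 1 and 2 had 1296 and 1294 while the other 4 had 2210 to 2368, and mixed mice had 475 to 878. The 10 rises from Olfr568 to Olfr298 were also DE with the cartridge as a random block.

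The largest fall belonged to Olfr31 (MOR274-1, chromosome 14). It ran from 218 to 267 in 129 mice (median 251) and from 1030 to 1657 in mixed mice (median 1336). The 129 mice all lay below the mixed mice, a 5.28-fold fall (log2 -2.40, SE 0.09, limma adjusted p = 2.46e-15). Olfr720 (MOR274-2), the gene next to it in the table and of the same family, ran from 520 to 601 in 129 mice (median 589) and from 2101 to 3937 in mixed mice (median 2884). Its fall of 2.34 on the log2 scale (SE 0.11) took it from rank 55 in mixed mice to rank 406 in 129 mice. These neighbours thus had the same direction and nearly the same size of difference.

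Olfr552 (MOR28-1, class I, chromosome 7) ran from 156 to 194 in 129 mice (median 174) and from 651 to 1171 in mixed mice (median 917). The difference was -2.36 (SE 0.11, limma adjusted p = 3.42e-14), and no mouse of either background fell in the range of the other. Olfr1180 (MOR225-1, chromosome 2) ran from 134 to 196 (median 165) against 450 to 1216 (median 825), a difference of -2.23. Olfr1179 (-1.71) and Olfr1186 (-1.50) lie close to it on chromosome 2. Olfr916 (-2.02) and Olfr855 (-1.51), both on chromosome 9, completed the 10 largest falls with Olfr560 (-1.97) and Olfr740 (-1.95). Olfr916 and Olfr855 owe their size to 1 mixed group, as given below.

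Close relatives did not always share a direction. Olfr560 (MOR14-1) ran from 166 to 231 in 129 mice (median 190) and from 592 to 953 in mixed mice (median 807), whereas Olfr568 of the same MOR14 family showed the largest rise of all. Olfr561, between them in the table, differed by +0.34 (limma adjusted p = 0.00111, and 0.131 with the cartridge block). In family MOR106 on chromosome 14, Olfr736 differed by +1.62 and Olfr740 by -1.95. Olfr740 was the tightest of the large falls: 695 to 838 in 129 mice (median 771) against 2688 to 3272 in mixed mice (median 2921, SE 0.05 on the log2 scale).

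**Figure D2:**
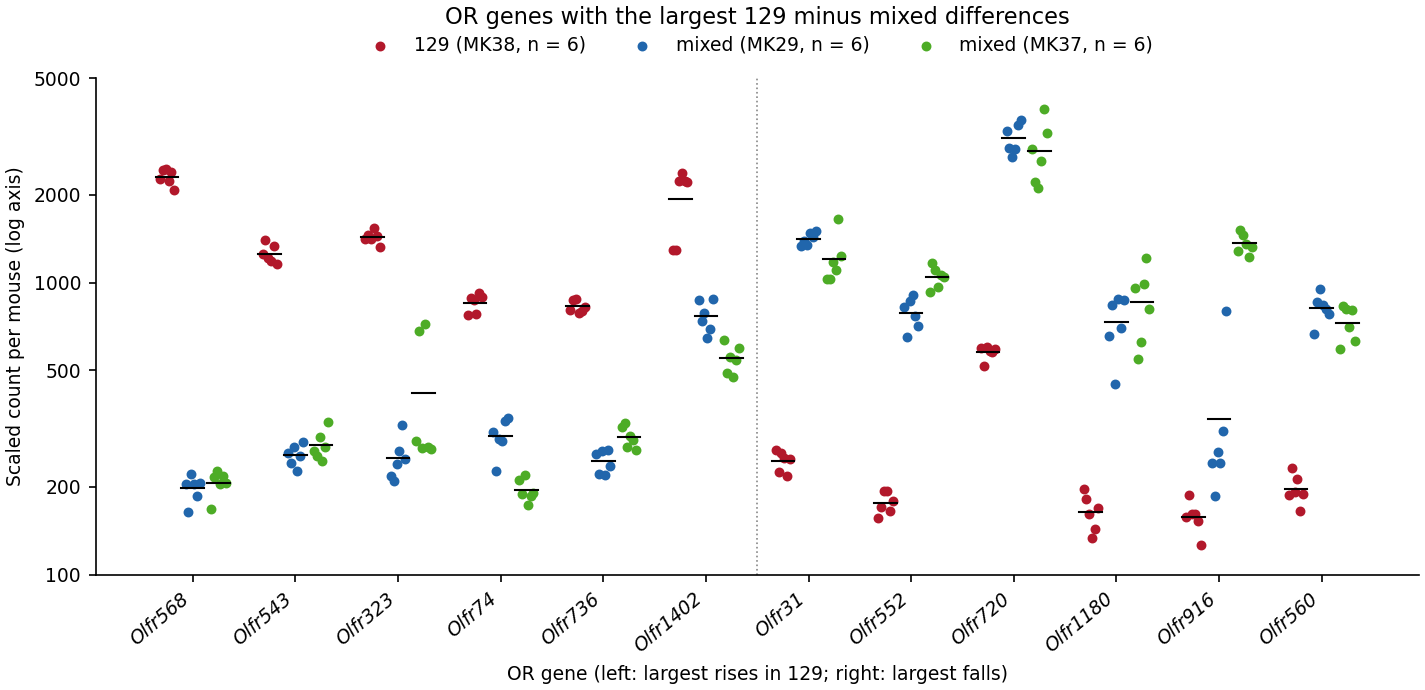
Scaled count per mouse (log axis) for the 6 OR genes with the largest rises and the 6 with the largest falls in 129 mice. Points are single mice in 129 (MK38), mixed MK29 and mixed MK37, n = 6 each, and bars are group means. The MK29 and MK37 ranges overlap for most of these genes. They do not meet for Olfr74, Olfr736, Olfr1402, Olfr552 and Olfr916, and the 2 mixed groups lie farthest apart for Olfr916.

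Probe pairs of relatives can share bases, so each gene's pair was set against all other OR pairs. The closest other pair matched at a median of 54.0% of bases over all genes and 53.0% for the 54 genes at 2-fold, and the median GC content was 46% over all genes, 46% in those higher and 45.5% in those lower at 2-fold. Only 8 genes had another pair at 80% or more, of which 7 were DE and 1 was among the 54. That gene was Olfr1512 of the H cluster, whose neighbour is Olfr1513. The alignment below gives both pairs, with differing bases in capitals.
Olfr1512 capture: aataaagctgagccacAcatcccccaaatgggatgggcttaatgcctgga
Olfr1513 capture: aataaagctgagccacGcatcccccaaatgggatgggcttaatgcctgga
Olfr1512 reporter: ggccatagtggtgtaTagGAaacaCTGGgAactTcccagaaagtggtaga
Olfr1513 reporter: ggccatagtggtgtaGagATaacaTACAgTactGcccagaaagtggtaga
The capture probes differ at 1 base and the reporter probes at 9 of 50. Olfr1512 (+1.15) and Olfr1513 (+0.92) moved the same way, and how far each pair also counts RNA of the other gene was not tested.

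A difference between backgrounds needs a measure of how much mice of 1 background label differ. Between the MK37 and MK29 mixed mice, 220 OR genes (40.1%) were DE, 159 higher and 61 lower in MK37. On trimmed-mean (TMM) scaling the split was 111 and 106. The differences were smaller than those between backgrounds: the median absolute difference was 0.17 on the log2 scale, against 0.37 for 129 minus MK29 and 0.34 for 129 minus MK37. An FC of at least 1.5 was reached by 31 genes between the mixed groups, against 156 and 155 between 129 and either of them. At 2-fold the counts were 8, 52 and 56. At 3-fold they were 4, 13 and 17.

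**Figure D3:**
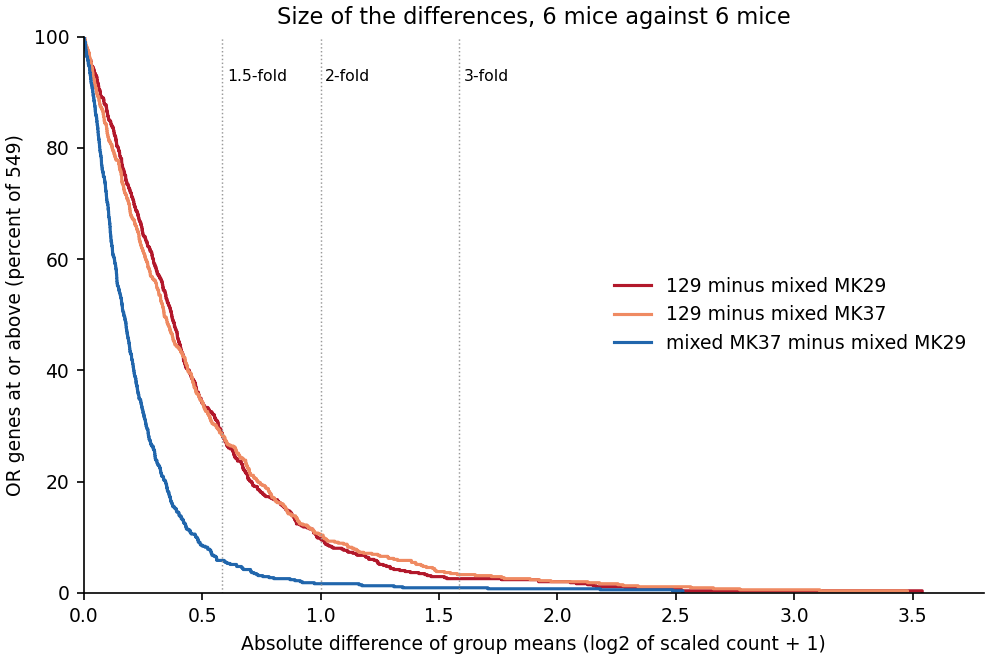
Percent of the 549 OR genes (vertical axis) whose group means differ by at least the amount on the horizontal axis (absolute log2 difference), for 129 minus MK29, 129 minus MK37 and MK37 minus MK29, 6 mice against 6 in each. The curves with 129 run together and lie above the curve for the mixed groups, for example 156 and 155 genes against 31 at 1.5-fold.

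The same order held for whole repertoires. The distance between 2 mice was taken as the SD over OR genes of their log2 difference. It had a median of 0.158 among 129 mice, 0.230 among MK29 mice and 0.237 among MK37 mice. Between MK29 and MK37 mice it was 0.407, and between 129 mice and MK29 or MK37 mice 0.668 and 0.690. The smallest distance across backgrounds, 0.615, exceeded the largest between mixed mice, 0.445.

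The most abundant receptors changed order. Ranks here compare counts per probe pair, and how well each pair captures its RNA was not tested. Olfr309 (MOR251-4P) ranked first in both backgrounds, with a mean of 10439 ± 449 (SD, n = 6) in 129 mice and 10425 ± 1329 (SD, n = 12) in mixed mice. It did not differ between 129 and mixed mice (limma adjusted p = 0.899), yet it was +0.17 against MK29 mice alone (limma adjusted p = 0.0111) and -0.15 against MK37 mice alone (limma adjusted p = 0.00277). The 129 mice had Olfr1176, Olfr1348, Olfr1015 and Olfr166 next. The mixed mice had Olfr1348, Olfr166, Olfr1507 and Olfr6. Of the 20 highest genes, 10 were shared by 129 and mixed mice, and 14 by the 2 mixed groups.

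Olfr1507 (MOR244-1, class II) is the OR gene closest to the H element and among the best studied. It ran from 2608 to 3603 in 129 mice (median 3016) and from 4674 to 10731 in mixed mice (median 8343). No 129 mouse reached the mixed range, and the gene went from rank 4 in mixed mice to rank 33 in 129 mice (log2 -1.32, SE 0.14, limma adjusted p = 4.37e-08). Olfr6 of the P cluster ran from 2480 to 3286 in 129 mice (median 2778) and from 6362 to 7823 in mixed mice (median 6740), from rank 5 to rank 47 (log2 -1.30, SE 0.06). Olfr1348 and Olfr166 fell by 0.80 and 0.77 on the log2 scale. Olfr1176 (MOR174-5) rose by 0.64, and Olfr1015 differed by 0.10 (limma adjusted p = 0.222).

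The repertoire of 129 mice was more even. The 20 highest genes of each mouse made up 13.0% ± 0.10 (SD, n = 6) of its summed OR count in 129 mice and 15.3% ± 0.47 (SD, n = 12) in mixed mice. All 129 mice lay below all mixed mice (exact two-sided permutation test over 18564 choices of 6 from 18 mice, p = 5.39e-05, the smallest it can give, adjusted p = 0.000108 over 6 measures). Shannon evenness, which is 1 when all genes are equal, was 0.957 in 129 mice and 0.949 in mixed mice (exact permutation, same p). The permutation tests, here and below, shuffle single mice and ignore the cartridges. Their p therefore does not set the background difference against the spread between cartridges.

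The summed OR count per mouse, relative to the reference genes, was 724049 ± 25500 (SD, n = 6) in 129 mice and 793330 ± 37619 (SD, n = 12) in mixed mice (exact permutation adjusted p = 0.00259). Against MK29 mice alone the difference was -40920 counts and missed the threshold (exact permutation adjusted p = 0.0682). The pooled test ignores that the mixed mice lie on separate cartridges. The median OR level on the log2 scale differed by 0.00 (exact permutation adjusted p = 0.987), and the reference genes, after positive-control scaling alone, by 0.06 (exact permutation adjusted p = 0.405).

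Class I receptors took a larger share of the 129 repertoire. The share of the 83 class I genes in the summed OR count ran from 13.9% to 15.3% in the 6 129 mice (mean 14.6% ± 0.50, SD) and from 10.1% to 12.7% in the 12 mixed mice (mean 11.2% ± 0.73, SD). The ranges did not meet, and the difference of 3.39 percentage points had an exact permutation adjusted p of 0.000108. Without Olfr568 and Olfr543, the class I genes with the largest rises, it was 3.03 points. Of the 83 class I genes, 46 were higher and 13 lower in 129 mice, with a median of +0.24. Of the 466 class II genes, 137 were higher and 192 lower, with a median of -0.06, which turned to +0.08 on total OR scaling. The 2 medians stood 0.30 apart, a gap that a change of lane scaling leaves nearly fixed by construction, and 0.33 and 0.28 apart against MK29 and MK37 mice alone.

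The longest run of neighbouring class I genes that were all higher had 8 members, from Olfr66 to Olfr644 on chromosome 7. Its differences ran from +0.33 (Olfr632) to +0.89 (Olfr643). Olfr644 ran from 3208 to 4293 in 129 mice (median 3569) and from 1636 to 2466 in mixed mice (median 2055), with no overlap. Olfr643 ran from 1722 to 2205 (median 1953) against 740 to 1390 (median 1069), also without overlap. Olfr66 and Olfr64, the first of the run, flank the beta-globin genes and were higher by 0.74 and 0.36. With the cartridge block 6 of the 8 stayed DE, while Olfr632 and Olfr641 did not (limma adjusted p = 0.112 and 0.126).

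Among class II genes, both of the longest runs were lower in 129 mice and lay on chromosome 2. The 9 genes from Olfr1208 to Olfr1226 hold 8 members of family MOR233 and differed by -1.34 to -0.34. Olfr1213, the most abundant of them, ran from 2395 to 2996 in 129 mice (median 2714) and from 6110 to 7552 in mixed mice (median 6728), with no overlap (log2 -1.31, SE 0.05, limma adjusted p = 2.06e-15). Olfr1211 and Olfr1212 were lower by 1.28 and 1.34, while Olfr1208, Olfr1215 and Olfr1216 in the same run were lower by 0.34 to 0.47. All 9 measured MOR233 genes on the panel were lower, with a median of -0.94, against 37.3% of all OR genes lower and a median of 0.00. The second run, of 8 genes from Olfr1234 to Olfr1257, held the 6 measured MOR231 genes and ran from -1.31 (Olfr1257) to -0.20 (Olfr1234). All 6 MOR231 genes were lower, but 3 of the 6 on total OR scaling and 3 of the 6 with the cartridge block. Of the whole second run 5 of 8 genes stayed DE with the block, without Olfr1234, Olfr1238 and Olfr1254 (limma adjusted p = 0.320, 0.124 and 0.105). Of the first run 8 of 9 did, without Olfr1208 (limma adjusted p = 0.106).

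Neighbours that were both DE more often shared a direction than not, without being uniform. Among 532 pairs of neighbouring measured OR genes, both were DE in 268, a count to be read against 70.7% of all OR genes being DE. The direction was the same in 178 of these pairs and opposite in 90. Both were at 2-fold in 12 pairs, 11 in the same direction and 1 in opposite directions, where 9.84% of all OR genes were at 2-fold.

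A family can also move together across chromosomes. Family MOR103 has 16 measured members on chromosomes 1, 6, 7 and 14, and 15 were lower and 1 higher in 129 mice, with a median of -0.93. The exception was Olfr522 (+0.26), which was not higher when positive controls alone set the scale. In 14 of the 16 all 129 mice lay below all mixed mice, against 136 of 549 genes overall. Olfr6, Olfr2 (the I7 receptor, a receptor for octanal) and Olfr1348 are MOR103 genes. Olfr2 had a median of 1828 in 129 mice and 3595 in mixed mice, and its highest 129 mouse (1967) stayed below its lowest mixed mouse (3266). Within the family the closest other probe pair matched at 39% to 75% of bases (median 42.5%).

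Other families had more members higher than lower. Over all OR genes 33.3% were higher and 37.3% lower, against which the counts of each family and region are to be read. In MOR174, 7 of 10 measured members were higher and 1 lower (9 higher and 1 lower on total OR scaling), and the 7 include Olfr74 and Olfr1176. In MOR136, 6 of 8 were higher and 0 lower. In MOR245, by contrast, 8 of 11 were lower and 1 higher. All 5 measured MOR225 genes, a family taken up after its values were seen, were lower. No test was made on these lists.

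By position, chromosome 1 had 14 of 22 genes lower and 3 higher, and chromosome 16 had 7 of 10 lower and 2 higher. In the P cluster 12 of 21 genes were lower and 2 higher, and in the H cluster 4 of 7 were lower and 2 higher. In the Olfr7 cluster 9 of 37 were lower and 14 higher, the latter close to the share over all genes. Chromosome 9 as a whole had 27 of 62 genes higher and 14 lower. Of the 5 OR genes that RefSeq annotates as pseudogenes, Olfr421 (+1.23), Olfr844 (+0.85) and Olfr1025-ps1 (+0.26) were higher, Olfr664 (-0.45) was lower, and Olfr839-ps1 differed by -0.06 without being DE.

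The 129 mice varied less among themselves. The median SD between mice, over OR genes, was 0.110 on the log2 scale in 129 mice, 0.140 in MK29 and 0.121 in MK37. It was smaller in 129 mice than in MK29 mice for 393 of 549 genes, than in MK37 mice for 326, and than in both for 265. No gene had an SD over 0.5 in 129 mice, against 5 in MK29 and 6 in MK37. Gene by gene, a limma fit of the absolute deviations from each group mean called 5 genes (0.911%). Of these, Olfr107, Olfr1314, Olfr539 and Olfr323 varied less in 129 mice, and Olfr866 varied more. The call of Olfr866 was lost on TMM scaling and against either mixed group alone (limma adjusted p = 0.117, 0.0559 and 0.0656). Olfr107 kept its call in all 3 of these fits, Olfr1314 and Olfr539 in 2 each, and Olfr323 against MK37 alone.

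Several of these genes split the mixed mice into separate levels. Olfr107 (MOR156-3, chromosome 17) was at 598 to 745 in 6 mixed mice (MK29 mice 1, 5 and 6, MK37 mice 2, 3 and 6) and at 161 to 208 in the other 6, with nothing between. All 129 mice had 201 to 256, near the lower level. Its mean difference of -0.60 was not DE (limma adjusted p = 0.159), whereas its spread was (limma adjusted p = 3.24e-33). The 6 mice on each level deviate from their group mean by nearly the same amount, which leaves that fit a very small residual.

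Olfr1314 (MOR245-2, chromosome 2) was at 1735 to 2682 in MK37 mice 3, 4, 5 and 6 and at 452 to 599 in the other 8 mixed mice, while 129 mice had 2037 to 2179. Here the 129 mice matched the upper level. Olfr323 was at 681 and 720 in MK37 mice 2 and 4 and at 209 to 325 in the other 10. Olfr319, next to Olfr323 on chromosome 11, was also highest in these same 2 mice, at 1205 and 1099 against 456 to 630 in the rest and 1120 to 1291 in 129 mice. Olfr539 (chromosome 7) split the MK29 mice only, with 1065 to 1251 in MK29 mice 2, 3 and 5 and 378 to 415 in the others. The MK37 mice had 465 to 572, between those levels, and the 129 mice 345 to 412. For Olfr866 (chromosome 9) the inbred mice spread instead, from 400 to 901, with mixed mice at 253 to 349.

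To see how often this occurred among the large differences, each mixed mouse was placed nearer to the 129 mean or to the mixed median on the log2 scale for the 54 genes at 2-fold. Of the 648 pairs of gene and mixed mouse, 35 lay nearer to 129, 19 in MK29 and 16 in MK37. In 43 genes no mixed mouse did so. The other 11 were Olfr421, Olfr355, Olfr1179, Olfr1314, Olfr855, Olfr893, Olfr916, Olfr323, Olfr319, Olfr223 and Olfr1507. In 6 of these the mice came only from MK37 and in 5 only from MK29. The 54 genes were chosen on the means of these same mice, and 48 of them had no overlap. The small count of pairs near 129 follows in part from that choice. Olfr107, which split the mixed mice of both groups, and Olfr539, which split the MK29 mice, were not among the 54.

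The 3 chromosome 9 genes of this group separated MK29 from MK37 mice, whose colony and cartridge change together. Olfr855 had 316 to 397 in all MK29 mice and 1514 to 3120 in all MK37 mice, with 129 mice at 271 to 335, so its fall in 129 mice was -0.24 against MK29. Olfr916 and Olfr893 of the Olfr7 cluster had the same pattern of mice: MK37 mice had 1221 to 1517 and 1267 to 1460, MK29 mice 1 to 5 had 186 to 311 and 162 to 229, and MK29 mouse 6 had 798 and 632. The 129 mice had 126 to 187 for Olfr916 and 160 to 242 for Olfr893. With the cartridge block, which uses the same correlation for every gene, Olfr916 stayed DE (limma adjusted p = 0.00541) and Olfr893 did not (limma adjusted p = 0.0599). Olfr916 itself differed by 2.18 on the log2 scale between MK37 and MK29. Olfr421 and Olfr1314 were likewise lost with the block (limma adjusted p = 0.129 and 0.0804). Along with Olfr421, Olfr1314 and Olfr844, these chromosome 9 genes were among the 8 that differed at least 2-fold between MK37 and MK29.

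**Figure D4:**
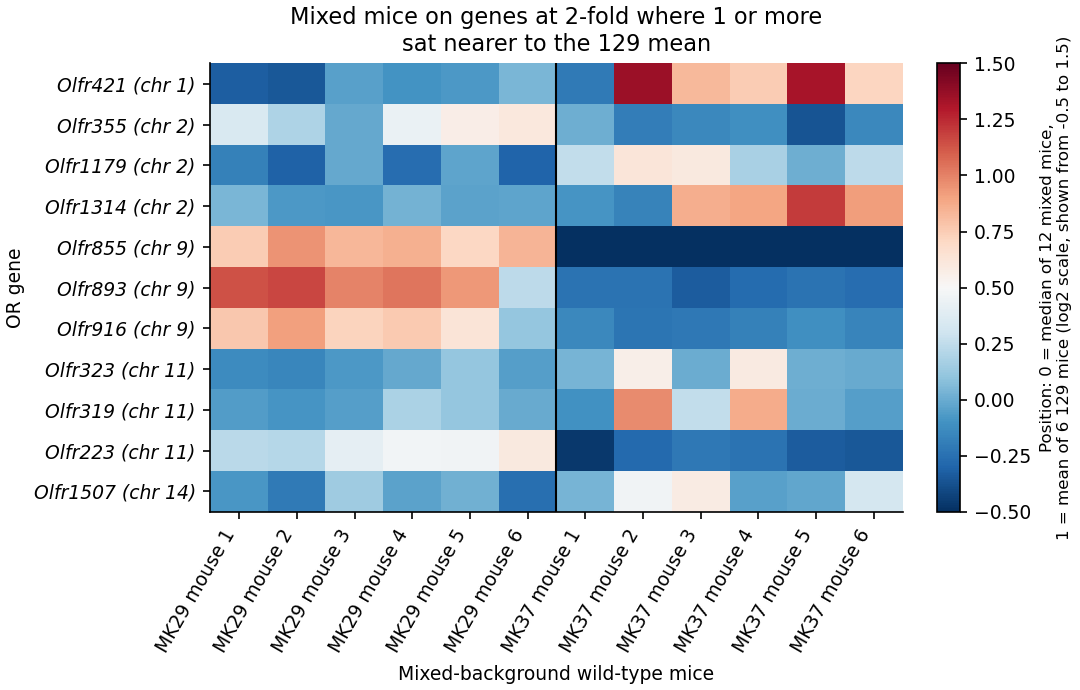
Position of each of the 12 mixed mice (columns) between the mixed median (0) and the 129 mean (1) on the log2 scale, for the 11 genes at 2-fold (rows) in which at least 1 mixed mouse lay nearer to 129. Colours run from -0.5 to 1.5, and red marks mice near 129. MK29 mice are red for Olfr855, Olfr893 and Olfr916, except mouse 6 in the last 2, as are MK37 mice for Olfr421, except mouse 1, and for Olfr1314, except mice 1 and 2.

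The mutants of the study, also aged 21 days, allow the comparison to be made again without sharing a mouse. The 6 ΔOlfr7Δ mice (homozygous, 2 females and 4 males), which lack the Olfr7 cluster on chromosome 9, are labelled 129SvEv inbred and lay in lanes 7 to 12 of MK38. The 6 ΔP (Berry) x ΔH mice (double homozygous, 1 female and 5 males), which lack the P and H elements, are of the mixed background and lay in lanes 7 to 12 of MK29. They thus share those cartridges with the wild-type groups. Background, deletion and cartridge change together in this contrast, and the Olfr7 cluster, the P cluster and chromosome 14 were left out of it. Of the 465 OR genes outside these regions, 331 (71.2%) were DE between the mutants, 202 (43.4%) higher and 129 (27.7%) lower in ΔOlfr7Δ mice, with a median of +0.13.

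Most wild-type differences recurred there. Of 157 genes higher in wild-type 129 mice, 130 were also higher in the 129 mutants and 1 (Olfr50) was lower. Of 171 lower in wild-type 129 mice, 119 were also lower and 3 (Olfr429, Olfr1105 and Olfr491) were higher. Of the 54 genes at 2-fold, 43 could be tested, and 41 of those were DE in the same direction in mutants: 14 of 16 rises and 27 of 27 falls. The 2 others, Olfr421 and Olfr223, also had positive differences, +0.39 and +0.36, but were not DE. Over the 465 genes Pearson's r of the 2 differences was 0.906 and Spearman's rho 0.877, as a description only, since the genes are not independent and both sets share cartridges.

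By gene, Olfr568 was higher by 3.67 in the mutants (+3.51 in wild type), Olfr543 by 2.79 (+2.23), Olfr323 by 2.59 (+2.22) and Olfr74 by 1.26 (+1.83). The mutants differed by -2.56 for Olfr552 (-2.36 in wild type), by -2.72 for Olfr560 (-1.97) and by -2.47 for Olfr1180 (-2.23). Among families, 11 of 12 tested MOR103 genes and 8 of 9 MOR233 genes were lower in the 129 mutants too. Genes that split the mixed wild-type mice did so unevenly. Against MK29 mice, Olfr107 was at -0.55 in wild type and -2.35 in mutants, and Olfr855 at -0.24 and -2.23, and both passed a test of the interaction with genotype (limma adjusted p = 0.000548 and 7.08e-13). For Olfr1314 (+1.92 and +2.12), Olfr323 (+2.52 and +2.59) and Olfr539 (-0.88 and -0.95) the interaction missed the threshold (limma adjusted p = 0.402, 0.822 and 0.934).

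The class I shift was smaller in mutants, though the shifts were not tested against each other. On the same 465 genes, class I genes made up 16.9% ± 0.54 (SD, n = 6) in wild-type 129 mice and 13.3% ± 0.83 (SD, n = 12) in wild-type mixed mice. Against MK29 mice alone, on the cartridges that the mutants share, the wild-type difference was 3.81 points (exact permutation p = 0.00216). In the mutants the values were 15.3% ± 0.50 (SD, n = 6) and 14.2% ± 0.88 (SD, n = 6), a difference of 1.14 points (exact permutation p = 0.0195). The median of class I genes in mutants was +0.12 and that of class II genes +0.16, so the order of the classes seen in wild-type mice did not recur. Class I genes counted 30 higher and 17 lower of 83.

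**Figure D5:**
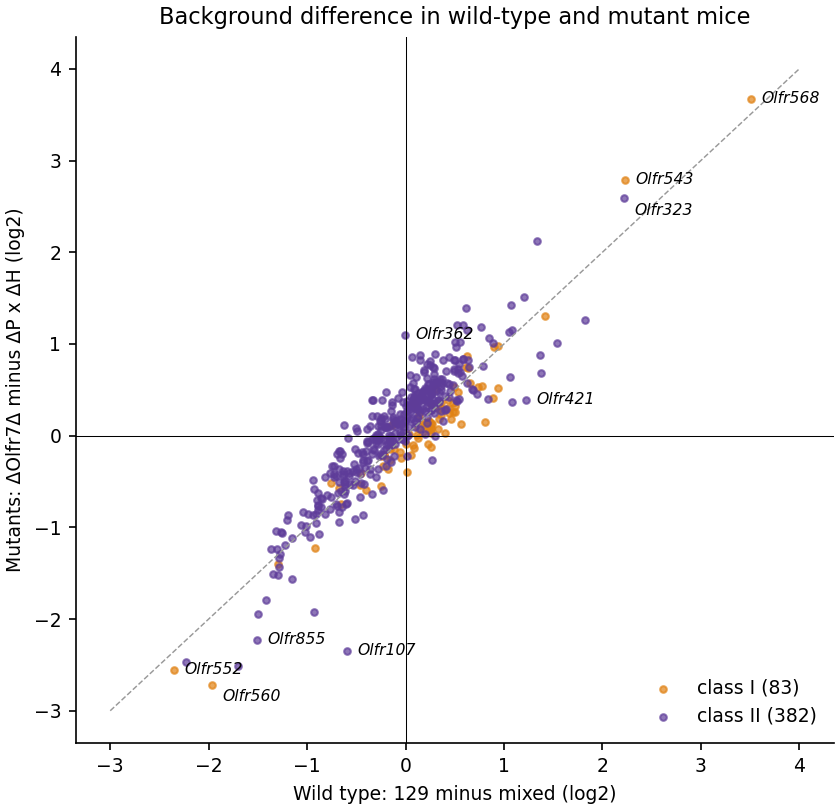
Difference between backgrounds in wild-type mice (horizontal axis, 129 minus mixed, log2) and in mutant mice (vertical axis, ΔOlfr7Δ minus ΔP x ΔH, log2). The 465 OR genes lie outside the Olfr7 cluster, the P cluster and chromosome 14, class I in orange and class II in purple. The dashed line marks equal differences. Points follow the line with r of 0.906, while Olfr107, Olfr362 and Olfr421 lie off it.

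Of the 6 OR genes that the study names, 3 were DE between the backgrounds, Olfr916 (above), Olfr985 and Olfr695. Olfr985 was lower in 129 than in mixed wild-type mice by 0.58 (SE 0.11, limma adjusted p = 5.00e-05), with 536 ± 48.1 (SD, n = 6) against 812 ± 143 (SD, n = 12). Olfr695 of the P cluster was lower by 0.48, with 2372 to 2494 against 2917 to 4047. Olfr447 (+0.17, limma adjusted p = 0.188), Olfr362 (-0.01, limma adjusted p = 0.920) and Olfr107 were not DE. Olfr362 was lower in 129 mice than in MK29 mice, by 0.19, and higher than in MK37 mice, by 0.17.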

How the data were processed

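The deposited table held raw whole-number counts of each probe in each lane. The authors had collected them from nCounter scans, unscaled and with no background taken off, and 1 lane held 1 mouse, so nothing was pooled. Every column belonged to a sample of the series (0 without one). Here the counts of the 18 wild-type lanes were scaled together on the 6 positive controls and next on the 5 reference genes (geometric means), as the authors describe, and log2 of the scaled count plus 1 was computed. OR genes with a mean scaled count of at least 100 were to be tested, which all 549 passed. limma 3.58.1 in R 4.3.3 (lmFit, eBayes with trend) was the main test, with tTREAT on counts less the lane background beside it, and exact permutation tests over mice for per-mouse values (Python 3.11.15, scipy 1.17.1, numpy 2.4.6, pandas 2.3.3, matplotlib 3.10.9). The limma fit was checked on simulated counts that held no cartridge effect. The reference genes set the scale, so each level is relative to them. Summed raw counts give the depth of each lane, and the number of mice limits the precision. The alternatives covered scaling, pseudocount, filters, sex, cartridge, the mixed groups and each mouse left out.

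Named genes are the 10 largest rises and 10 largest falls among genes that were DE against all mixed mice and, in the same direction, against each mixed group alone, the 5 highest genes of each background, the 5 genes with the largest SD in mixed and in 129 mice, the 5 smallest p of the spread fit, genes the study names, and members of the 3 longest runs. The members, lists and tests were chosen with earlier results of these data known. Chromosome, family, cluster and order come from the OR table in the study's software, for which no source used here names a genome build, so no coordinates are printed. Gene biotypes come from RefSeq (GRCm38.p6), matched by symbol for 545 genes and by an older name for 4. Probe identity is the share of bases that match without gaps over both probes.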

Additional observations from a re-analysis of the deposited data

Results flagged for a closer look

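In 9 of 204 sets of 6 mice tested, 1 mouse stood far from the other 5, where chance gives about 1 in 20 such sets. MK37 mouse 1 had 167.9 scaled counts of Olfr568 against 204.7 to 226.3 in the other MK37 mice. 129 mouse 5 had 4054.2 of Olfr298 (others 3323.5 to 3570.0), and MK37 mouse 5 had 1656.5 of Olfr31 (others 1030.5 to 1228.9). 129 mouse 2 had 519.8 of Olfr720 (others 577.0 to 600.6) and 2178.6 of Olfr1314 (others 2036.5 to 2071.4). MK29 mouse 6 had 798.4 of Olfr916 (others 186.1 to 311.2), MK29 mouse 4 had 4047.4 of Olfr695 (others 3510.4 to 3663.2), MK29 mouse 2 had 7552.1 of Olfr1213 (others 6629.9 to 6853.0), and MK37 mouse 3 had 1233.9 of Olfr1226 (others 1453.5 to 1577.2). No cause was tested.

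The background difference itself was compared between wild-type and mutant mice on cartridges MK38 and MK29 by an interaction term, an alternative added after seeing the data. It was past the threshold in 86 of 465 genes and in 15 of the 55 named genes that could be fitted. Values are the wild-type difference (129 minus MK29) less the mutant difference, on the log2 scale, with limma's adjusted p. The largest were Olfr855 (1.99, limma adjusted p = 7.08e-13), Olfr107 (1.80, limma adjusted p = 0.000548), Olfr421 (1.70, limma adjusted p = 0.000244) and Olfr362 (-1.29, limma adjusted p = 4.39e-10). Among genes with the largest rises and falls, Olfr543 had -0.50 (limma adjusted p = 0.0186) and Olfr560 had 0.66 (limma adjusted p = 0.00267). In the class I run on chromosome 7 the wild-type difference exceeded the mutant difference for Olfr66 (0.34, limma adjusted p = 0.0117), Olfr632 (0.43, limma adjusted p = 0.00502), Olfr643 (0.56, limma adjusted p = 0.00251) and Olfr644 (0.69, limma adjusted p = 0.000114). In the runs on chromosome 2, Olfr1208 had 0.48 (limma adjusted p = 0.0159) and Olfr1254 had 0.39 (limma adjusted p = 0.0164). The rest were Olfr166 (-0.35, limma adjusted p = 0.00571), Olfr985 (-0.36, limma adjusted p = 0.0247) and Olfr447 (-0.55, limma adjusted p = 0.00267). Deletion and background change together in the mutants, so which of them these differences follow cannot be told apart.

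Some OR probes were read on part of the cartridges and entered no comparison. Of those read on MK38 alone, 6 of 6 lay above the lane background in all 6 129 lanes, from 116.5 (Olfr589) to 818.4 (Olfr304). Of those read on MK29 and MK37 alone, 8 of 9 lay above it in all 12 mixed lanes, and Olfr24 in 8 lanes.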

How the results depend on the processing

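With the cartridge as a random block, limma called 238 genes in place of 388. The tTREAT test called 139 genes at an FC threshold of 1.3 and 31 at 2, in place of 79 at 1.5. The spread fit called 3 genes on TMM scaling and 8 against MK37 mice alone, in place of 5. The summed OR count differed by -40920 against MK29 mice alone (exact permutation adjusted p = 0.0682), and the median OR level by -0.064 on the log2 scale against MK37 mice alone (exact permutation adjusted p = 0.0416). Against MK37 mice alone, Olfr309 (0.17 against MK29) turned to -0.15 and Olfr362 to 0.17. Over 13 alternatives the 63 named genes kept direction and side of the threshold in 788 cases, lost the call in 17, gained it in 11 and turned in these 2, and 48 genes kept both throughout. Leaving out each mouse in turn, limma called 372 to 401 genes, of which 366 to 387 were among the 388, and tTREAT 74 to 83. No paired analysis was possible because the labels give no numbers that pair mice of different groups. The edgeR and DESeq2 fits listed were not run, because the unit of these probe counts was recorded as other than sequencing counts. Each background lay on its own cartridges, and 220 genes differed between the mixed groups, which share a background label and come from different companion strains. The number of mice and 1 probe pair per gene limit every value, and probe capture was not tested.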
